A study of Mus musculus with 14 samples.

Results

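The microRNAs miR-10a, miR-10b, miR-196a, miR-196b and miR-615-3p are encoded inside the Hox gene clusters. The table lists them as mmu-miR-10a, mmu-miR-10b, mmu-miR-196a, mmu-miR-196b and mmu-miR-615-3p, with mmu for mouse. They were chosen by name, for that position, and all 5 were found among the 1046 names in the deposited table, of which 805 had at least 1 read. The study sequenced small RNA from 14 tissues of C57BL/6J mice, a widely used inbred strain: brain, cerebellum, oesophagus, heart, lung, stomach, liver, pancreas, spleen, kidney, small intestine, colon, ovary and uterus. No group carried a transgene, a mutation or a treatment according to the labels, and the age of the mice is not given in the sources used here. Each tissue was 1 library from RNA pooled over animals, with 5 mice named where tissue was taken and 10 where RNA was pooled. Without replicates no tissue difference was tested, and every interval covers counting error only.

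Hox genes encode transcription factors that give regions along the body axis their identity in the embryo. Their order along the chromosome matches the order of their expression from front to back. A microRNA (miRNA) is a short RNA that pairs with messenger RNAs, mainly through its seed, bases 2 to 8 from the 5′ end, and lowers their output. Several targets known for miR-10 and miR-196 are Hox messages, and cleavage of the Hoxb8 message by miR-196 is a known case in mouse.

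The 5 mature sequences are shown because they fall into 3 seed groups, and because 2 pairs of them are nearly identical, which bears on every comparison within a pair. All 5 names were matched to mature miRNAs of RefSeq on the mouse assembly GRCm38.p6. The seed is in capitals.
miR-10a: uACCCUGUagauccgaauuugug
miR-10b: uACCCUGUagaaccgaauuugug
miR-196a: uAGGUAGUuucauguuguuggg
miR-196b: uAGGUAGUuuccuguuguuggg
miR-615-3p: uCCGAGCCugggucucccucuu

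miR-10a and miR-10b share their seed with no other mature miRNA in that RefSeq table, and the same holds for miR-196a and miR-196b, while the seed of miR-615-3p was found in that name alone. Counted from 1 at the 5′ end, miR-10a and miR-10b differ by 1 substitution, U12A, and miR-196a and miR-196b by 1 substitution, A12C. How the authors assigned reads with a mismatch is not given in the sources used here. The opposite arms of the hairpins, which carry a star in the older naming of the table, differ more. miR-10a* and miR-10b* differ at 3 positions (A3G, U9A and A10U), shown here in capitals.
miR-10a*: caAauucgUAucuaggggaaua
miR-10b*: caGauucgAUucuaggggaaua

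miR-196a is made from 2 genes with the same mature sequence, and the star arms tell them apart, since 17 of 22 bases differ. Those bases are in capitals.
miR-196a-1*: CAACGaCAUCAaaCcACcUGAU
miR-196a-2*: UCGGCaACAAGaaAcUGcCUGA

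The genes lie in all 4 Hox clusters, and the positions below are those of RefSeq on GRCm38.p6, since the sources used here name no build for the counts. Mir10a (chr11:96317165-96317274, + strand) lies between Hoxb5 and Hoxb4, within the span that RefSeq gives Hoxb3. Mir196a-1 (chr11:96265164-96265265, + strand) lies in the same cluster between Hoxb13 and Hoxb9. Mir10b (chr2:74726070-74726137, + strand) lies in introns of Hoxd3 and Hoxd4 in the GENCODE M21 annotation. Mir196b (chr6:52230081-52230165, − strand) overlaps an exon of a Hoxa9 transcript in GENCODE and lies between Hoxa9 and Hoxa10 in RefSeq. Mir196a-2 (chr15:102973350-102973434, + strand) lies between Hoxc10 and Hoxc9, and the mature arm miR-615-3p (chr15:103014969-103014990, + strand) lies in an intron of Hoxc5.

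Levels are given as RPM (reads scaled to a library of 1000000), from the reads of a name over all miRNA reads of its library. Library totals ran from 622132 reads in pancreas to 9341000 in small intestine. miR-143, a smooth muscle miRNA, held between 4.01% (pancreas) and 98.7% (the library labelled colon) of the reads, and 87.1% in ovary. Every level is therefore also given with miR-143 left out of the total, which leaves 86545 reads in the library labelled colon and 292350 in ovary. The marker miRNAs miR-9 and miR-124 stood highest in brain and cerebellum, the muscle names in oesophagus and heart, miR-122 in liver, the acinar names in pancreas, the white blood cell names in spleen, the endothelial names in lung and the intestinal names in small intestine. With library totals, the intestinal names miR-192, miR-194 and miR-215 summed to 78772 RPM in the library labelled uterus, the second highest. They summed to 25.2 RPM in the library labelled colon, the lowest of the 14. With miR-143 left out, the library labelled uterus was again second (182504 RPM). The library labelled colon then had 1941 RPM and was not the lowest, which was pancreas with 548 RPM. No marker list was set for kidney or uterus. Whether these labels were exchanged, or tissue was carried over, was not tested, so the libraries labelled colon and uterus are called by their labels, and every comparison with them rests on those labels.

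The Hox-cluster miRNAs were most abundant in kidney under both totals. With median-of-ratios factors, or with the 5 most abundant names left out of the total, only 1 of the 5, miR-196a, was highest in kidney. The 5 names together made up 3.95% of all miRNA reads in kidney, 1.79% in the library labelled uterus, between 0.785% (oesophagus) and 0.177% (spleen) in 6 further libraries, and 0.00143% in brain. All 14 libraries held reads of miR-10a, miR-10b and miR-196b, 12 held miR-196a and 7 held miR-615-3p. In tissue extracts, fewer cells of a type and less of a miRNA per cell cannot be told apart.

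miR-10a, from the Hoxb cluster, was the most abundant of the 5 in 12 of the 14 libraries. From head to pelvis it stood at 8.84 RPM in brain, 88.1 in cerebellum, 4821 in oesophagus, 332 in heart, 6547 in lung, 2794 in stomach, 2291 in liver, 80.4 in pancreas, 1602 in spleen, 23048 in kidney, 4607 in small intestine, 52.6 in the library labelled colon, 135 in ovary and 12584 in the library labelled uterus. Kidney came first, then the library labelled uterus, then lung. Kidney was 1.83-fold above the library labelled uterus with library totals and 1.12-fold above it without miR-143 (32719 against 29156 RPM). Without miR-143 the library labelled colon had 4056 RPM and ovary 1050 RPM. Of the 13 neighbours in the order of levels, 12 differed beyond counting error. The exception was cerebellum above pancreas, at a fold of 1.10 (95% exact conditional interval 0.773–1.57).

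miR-10b, from the Hoxd cluster, had a different profile outside kidney. It stood at 4.89 RPM in brain, 35.3 in cerebellum, 2993 in oesophagus, 209 in heart, 107 in lung, 725 in stomach, 11.2 in liver, 32.1 in pancreas, 115 in spleen, 9659 in kidney, 587 in small intestine, 153 in the library labelled colon, 492 in ovary and 3117 in the library labelled uterus. Oesophagus followed close behind the library labelled uterus, while lung and liver, which were rich in miR-10a, were low. With miR-143 left out, the library labelled colon had 11820 RPM (11107–12568), behind kidney alone with 13711 RPM. In ovary the level was then 3814 RPM, within counting error of oesophagus at 3882 RPM.

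The balance of the 2 miR-10 names within a library does not depend on the library total, and it differed between many of the libraries. miR-10a made up 99.5% (95% exact binomial interval 99.4–99.6%) of the reads of the pair in liver, 98.4% (98.3–98.5%) in lung and 93.3% (92.8–93.8%) in spleen. The share was 88.7% in small intestine, 80.1% in the library labelled uterus, 79.4% in stomach, 70.5% in kidney, 61.7% in oesophagus and 61.4% in heart. The intervals of oesophagus (61.2–62.2%) and heart (59.8–63.0%) overlapped. miR-10b outnumbered miR-10a in only 2 of the 14 libraries. There the share of miR-10a was 25.5% (23.3–27.9%) in the library labelled colon and 21.6% (19.5–23.8%) in ovary, and these were the 2 libraries with the highest shares of miR-143. Brain, cerebellum and pancreas held 73, 140 and 70 reads of the pair, and their shares of 64.4%, 71.4% and 71.4% had intervals that overlapped each other.

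The star arms gave a second count of the pair, from sequences that differ at 3 positions instead of 1. Their shares equal those of the main arms only if both hairpins keep the same fraction of star reads. That fraction was 0.201% for miR-10a and 0.261% for miR-10b in kidney. In oesophagus it was 0.240% and 0.133%, and in spleen 0.282% and 1.24%. Star reads of the pair were found in 12 libraries. miR-10a* made up 80.9% (73.9–86.7%) of them in the library labelled uterus, 64.8% (61.0–68.4%) in kidney, 94.0% (87.4–97.8%) in small intestine and 86.4% (75.7–93.6%) in stomach. In lung all 69 star reads were miR-10a*, and in liver all 16. In the library labelled colon all 4 star reads were miR-10b*, and in ovary both. In 9 of these 12 libraries the interval from the star arms held the share of the main arms. The exceptions were kidney (64.8% against 70.5%), oesophagus (74.4%, 63.6–83.4%, against 61.7%) and spleen (75.9%, 56.5–89.7%, against 93.3%). Some of the 9 intervals were too wide to tell much. Pancreas had 1 star read (2.5–100%), ovary 2 (0–84.2%), the library labelled colon 4 (0–60.2%) and heart 6 (4.33–77.7%). The count of 9 is therefore not a measure of likeness between the arms. Heart had 2 star reads of miR-10a* and 4 of miR-10b*. In liver, where miR-10a was most in excess, reads named miR-10b were 71 of the 14609 reads of the pair.

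**Figure D1:**
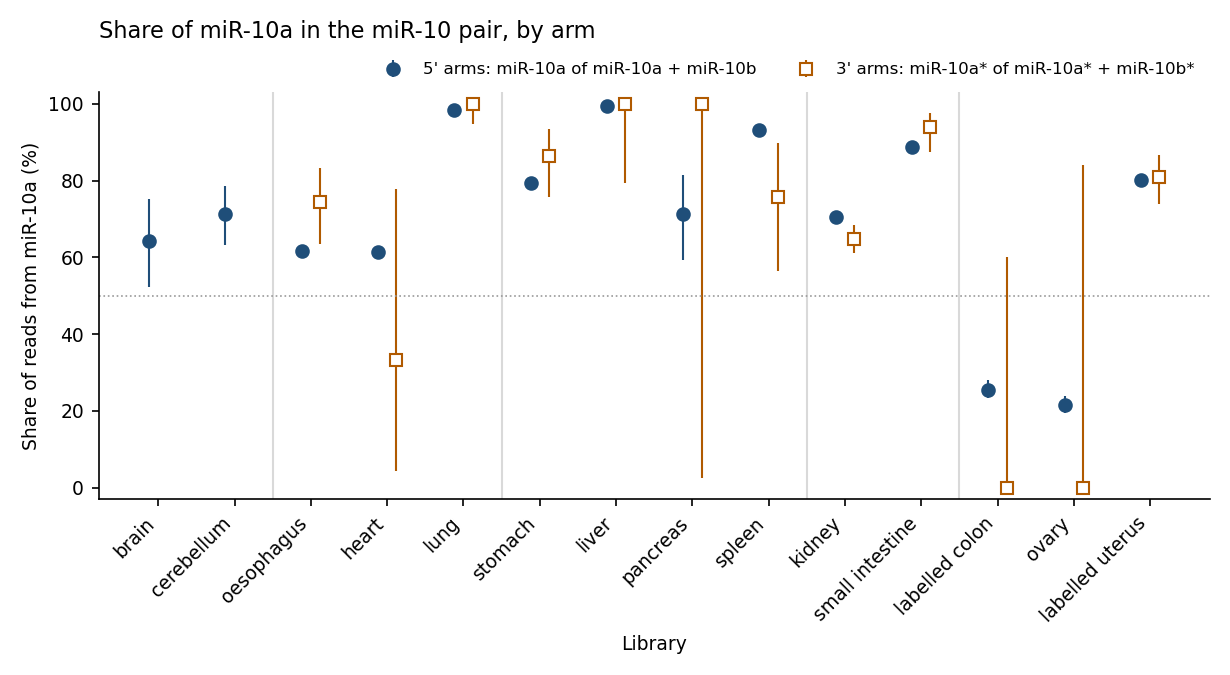
Share of miR-10a in the reads of the miR-10 pair (vertical axis, %) in each library (horizontal axis, head to pelvis, grey lines between bands of the body). Filled circles are the main arms and open squares the star arms, bars are 95% exact binomial intervals. The circles lie at 98.4% in lung and 99.5% in liver, and below 50% in the library labelled colon and in ovary.

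miR-196a and miR-196b were concentrated in 2 libraries. miR-196b, from the Hoxa cluster, stood at 0.376 RPM in brain, 3.53 in cerebellum, 20.0 in oesophagus, 3.03 in heart, 8.59 in lung, 1.42 in stomach, 1.10 in liver, 6.43 in pancreas, 28.6 in spleen, 4706 in kidney, 4.60 in small intestine, 75.1 in the library labelled colon, 2.21 in ovary and 1569 in the library labelled uterus. Kidney and the library labelled uterus were the only libraries above 100 RPM, followed by the library labelled colon. When miR-143 was left out, the library labelled colon reached 5789 RPM (5293–6319), behind 6681 RPM in kidney and ahead of 3636 RPM in the library labelled uterus. Kidney held 74.9% of all reads of this name, a share of raw counts that depends on the depth of each library. From lung down to brain, none of the 8 neighbours in the order differed beyond counting error, while the ends did, with 8.59 RPM (6.39–11.3) in lung and 0.376 RPM (0.0456–1.36) in brain.

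miR-196a, from one gene each in the Hoxb and Hoxc clusters, stood at 0.188 RPM in brain, 12.4 in oesophagus, 0.577 in heart, 1.85 in lung, 0.356 in stomach, 0.315 in liver, 26.8 in spleen, 2062 in kidney, 55.3 in small intestine, 2.55 in the library labelled colon, 4.85 in ovary and 605 in the library labelled uterus. Cerebellum and pancreas had no read, which allows up to 2.64 and 4.82 RPM (3 reads). Kidney and the library labelled uterus again stood apart, and small intestine followed. With miR-143 left out, the library labelled colon came next after these with 196 RPM (114–315), which did not differ from 119 RPM in small intestine beyond counting error (fold 1.65, 0.952–2.66).

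The balance within the miR-196 pair was opposite in the library labelled colon and in small intestine. miR-196a made up 3.28% (1.92–5.20%) of the reads of the pair in the library labelled colon and 92.3% (89.8–94.4%) in small intestine. The reads behind these shares were 17 of miR-196a and 501 of miR-196b in the library labelled colon, against 517 and 43 in small intestine. The share was 30.5% (30.1–30.8%) in kidney, 27.8% (27.2–28.5%) in the library labelled uterus, 48.3% (42.2–54.5%) in spleen and 38.2% (30.9–46.0%) in oesophagus. Ovary had 11 reads of miR-196a and 5 of miR-196b, and its interval of 41.3–89.0% includes an even split. The other 7 libraries had between 3 and 62 reads of the pair, and the share was 17.7% (9.20–29.5%) in lung, which had the most.

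The star arms of miR-196a carry the name of 1 of its 2 genes each. Their shares equal those of the hairpins only if both genes keep the same fraction of star reads, which was not tested. Star reads were found in 3 libraries. The gene of the Hoxb cluster gave 96 of 100 star reads in the library labelled uterus, a share of 96.0% (90.1–98.9%), and the gene of the Hoxc cluster the other 4. In kidney the Hoxb gene gave 53 and the Hoxc gene 66 of 119 star reads, a Hoxb share of 44.5% (35.4–53.9%). In small intestine all 9 star reads came from the Hoxb gene (66.4–100%). The interval of kidney does not overlap those of the other 2 libraries.

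**Figure D2:**
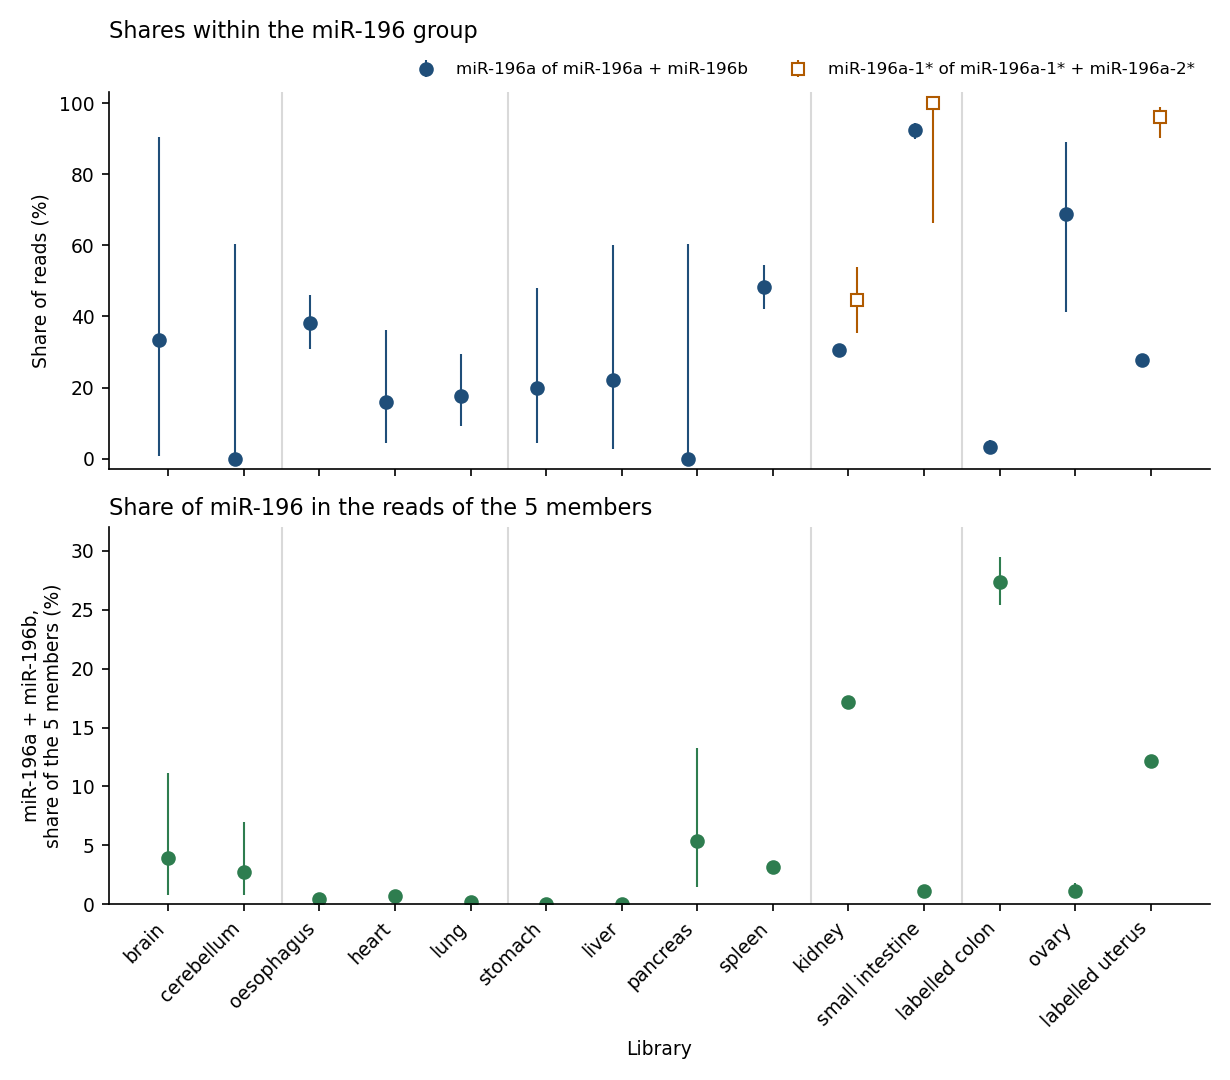
Upper panel, share of miR-196a in the reads of miR-196a and miR-196b (filled circles) and share of the Hoxb gene in the star reads of miR-196a (open squares), in %, by library. Lower panel, share of miR-196a and miR-196b together in the reads of the 5 Hox-cluster names, in %. Bars are 95% exact binomial intervals. Small intestine and the library labelled colon lie at opposite ends of the upper panel, at 92.3% and 3.28%.

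miR-196 genes lie nearer to the end of the clusters that is active at the rear of the embryo, and miR-10 genes nearer to the other end. miR-196a and miR-196b together were 27.4% (25.4–29.4%) of the reads of the 5 names in the library labelled colon, 17.1% (17.0–17.3%) in kidney and 12.2% (12.0–12.3%) in the library labelled uterus. In the other 11 libraries the share was at most 5.41%, with 3.13% (2.77–3.52%) in spleen, 1.14% in small intestine, 1.11% in ovary, 0.412% in oesophagus and 0.0505% (0.0283–0.0833%) in stomach. Pancreas, brain and cerebellum had 5.41%, 3.95% and 2.78%, from 4, 3 and 4 reads of miR-196. These shares do not depend on the library total.

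miR-615-3p, encoded in an intron of Hoxc5, was scarce. Its reads numbered 76 in kidney, 30 in oesophagus, 16 in small intestine, 7 in stomach, 5 in the library labelled uterus, 2 in ovary and 1 in lung, and the other 7 libraries had none. The level was 8.23 RPM (6.49–10.3) in kidney, 5.71 RPM (3.85–8.16) in oesophagus and 1.71 RPM in small intestine, and kidney and oesophagus did not differ beyond counting error (fold 1.44, 0.933–2.28), but did with miR-143 left out (fold 1.58, 1.02–2.49). Without miR-143, a count of 0 allows up to 34.7 RPM in the library labelled colon, above the 11.7 RPM of kidney on that scale. The absence of reads there therefore does not exclude a level like that of kidney. The opposite arm, miR-615-5p, had 4 reads in kidney and none elsewhere.

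**Figure D3:**
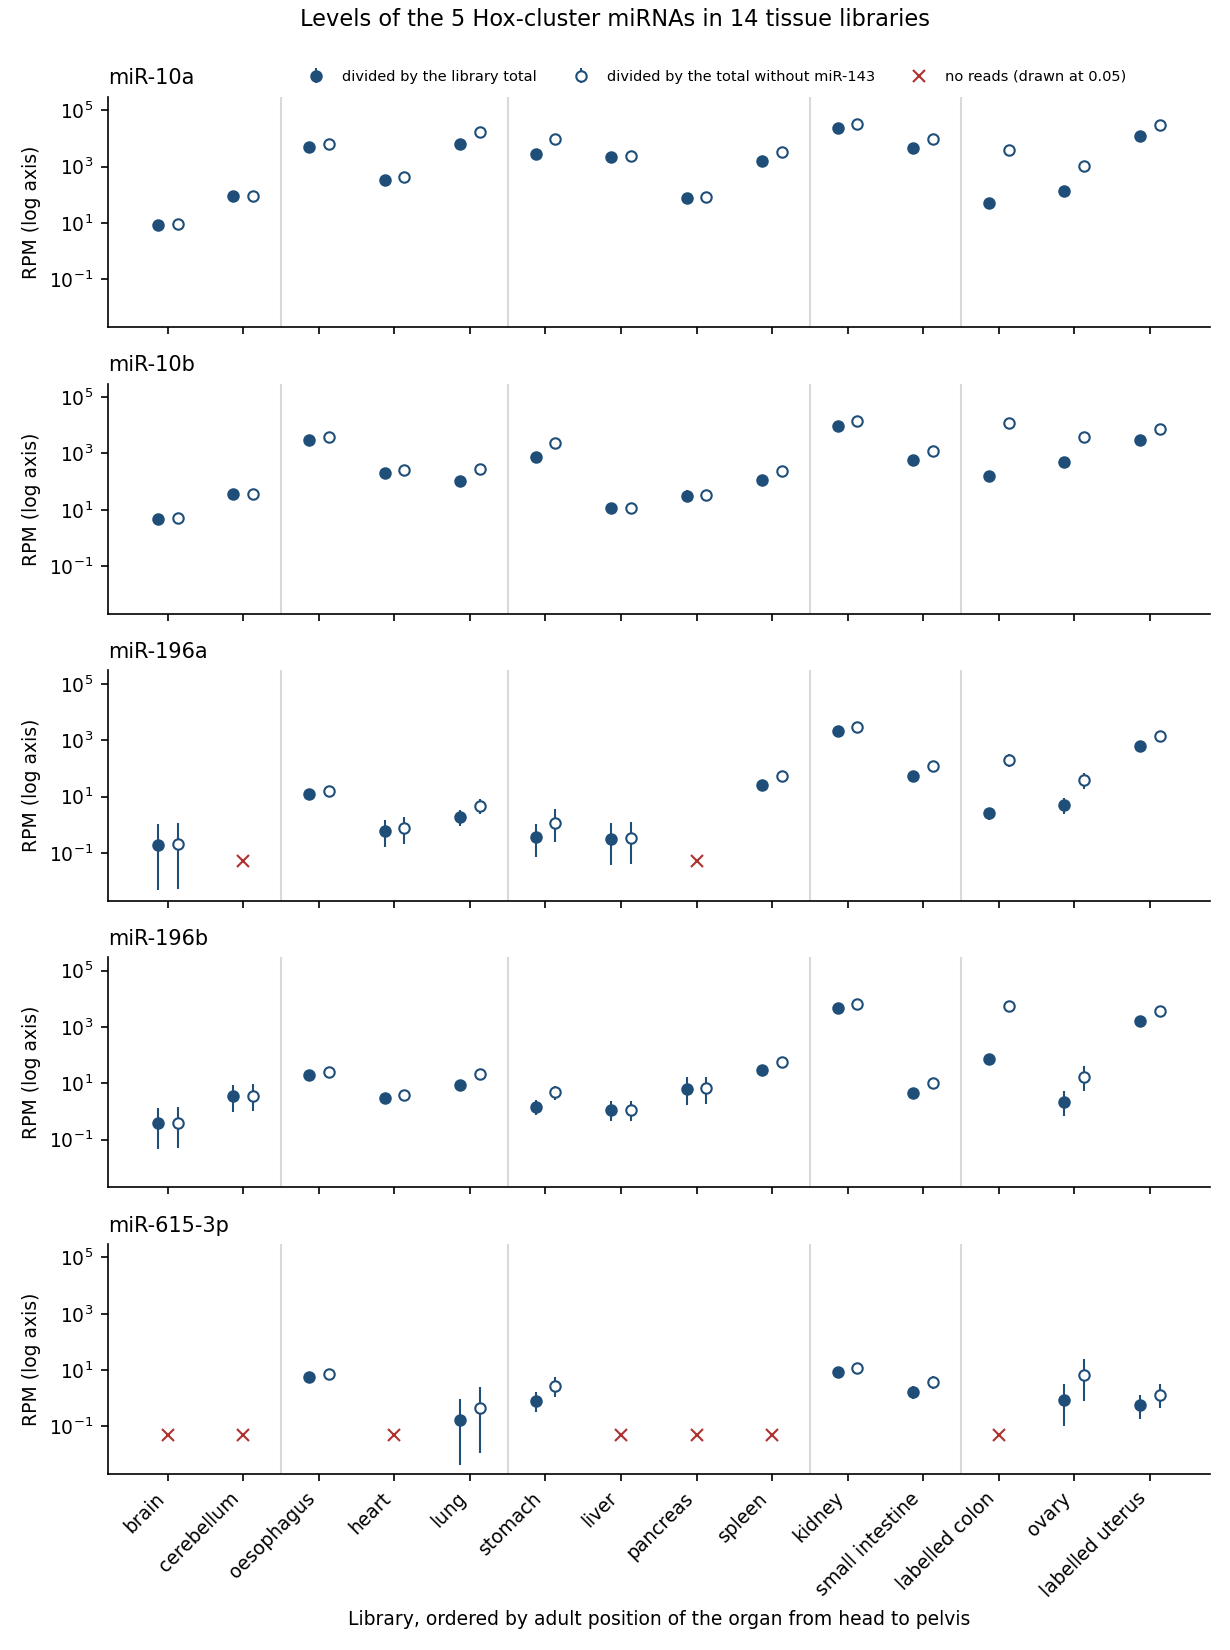
Levels of the 5 names in RPM (vertical axes, logarithmic) in 14 libraries ordered from head to pelvis, with grey lines between bands of the body. Filled circles use the library total, open circles the total without miR-143, bars are 95% exact Poisson intervals, and crosses mark libraries with no read. Kidney is highest for all 5 names under both totals, and the open circles of the library labelled colon lie far above its filled circles.

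To set the 5 names beside all others, each library was compared with the median of the other 13 on log2(RPM + 1), and a name was called higher at 4-fold or more with at least 100 RPM in the library. In kidney 4 of the 5 names were called higher, against 4.97% of all 805 names with reads. The differences were 9.71 (log2) for miR-196b, 9.50 for miR-196a, 5.97 for miR-10b and 3.85 for miR-10a, and the median over the 5 was 5.97, against 0.15 over all names. miR-615-3p lay at 3.21 but under the minimum level. In the library labelled uterus the same 4 names were called, against 1.99% of all names, with differences of 8.13 for miR-196b, 7.73 for miR-196a, 4.34 for miR-10b and 2.97 for miR-10a. The median of the 5 was 4.34, against 0 over all names. Intestinal marker miRNAs were also high in that library. In small intestine, those markers summed to 212864 RPM. In the library labelled uterus and in small intestine, miR-10a stood at 12584 and 4607 RPM and miR-10b at 3117 and 587. For miR-196a the levels were 605 and 55.3 RPM, and for miR-196b 1569 and 4.60 RPM. The part of the intestinal markers, or of tissue carried over, in the calls of the library labelled uterus was not tested.

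Calls in the library labelled colon depended on the total used. With library totals none of the 5 was called higher there, and neither was any other name (0% of all names), while miR-10a was called lower (−5.42), as were 9.07% of all names. With miR-143 left out, 3 were called higher, against 4.47% of all names. These were miR-196b at 9.05, miR-10b at 5.42 and miR-196a at 5.10, and miR-10a then lay at 0.29. Oesophagus and stomach had 1 name called higher, miR-10b at 4.28 and 2.23, against 5.96% and 2.86% of all names. Lung had miR-10a at 2.03, against 5.22%. In small intestine none of the 5 was called, where 2.86% of all names were.

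A name was called lower where the median of the other 13 reached 100 RPM and the library was at least 4-fold below it. miR-10a and miR-10b were the only 2 of the 5 that could meet the rule. The shares of all names given beside them count all 805 names, including those that could not meet it. Both were called lower in brain, where 1.74% of all names were, at −7.86 for miR-10a and −5.16 for miR-10b. Both were also called in cerebellum (2.73% of all names), at −4.68 and −2.53, and in pancreas (5.09%), at −4.82 and −2.66. miR-10a was called lower in heart (1.49%) at −2.78 and in ovary (7.45%) at −4.07, and miR-10b in liver (1.61%) at −4.11. The call of miR-10a in ovary was lost with miR-143 left out, at −1.95. In brain the median of the 5 was −2.43, while the median of all names was 0.78.

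The same rule on totals without miR-143 kept 4 names in kidney (3.98% of all names) and 4 in the library labelled uterus (2.36%). Small intestine then had 2, miR-196a at 4.38 and miR-10b at 2.20, against 3.73% of all names. miR-10b was called higher in ovary at 3.79 (1.61%), in oesophagus at 3.81 (4.47%) and in stomach at 3.14 (5.34%), and miR-10a in lung at 2.34 (8.07%). Calls of lower level covered both miR-10 names in brain (3.11%), cerebellum (4.72%), pancreas (9.19%) and heart (4.6%). miR-10b alone was called lower in liver at −6.61 (4.47%), spleen at −2.41 (0.87%) and lung at −2.20 (0.373%). miR-10a was high and miR-10b low in lung on this scale, the only library where the pair was called in opposite directions.

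**Figure D4:**
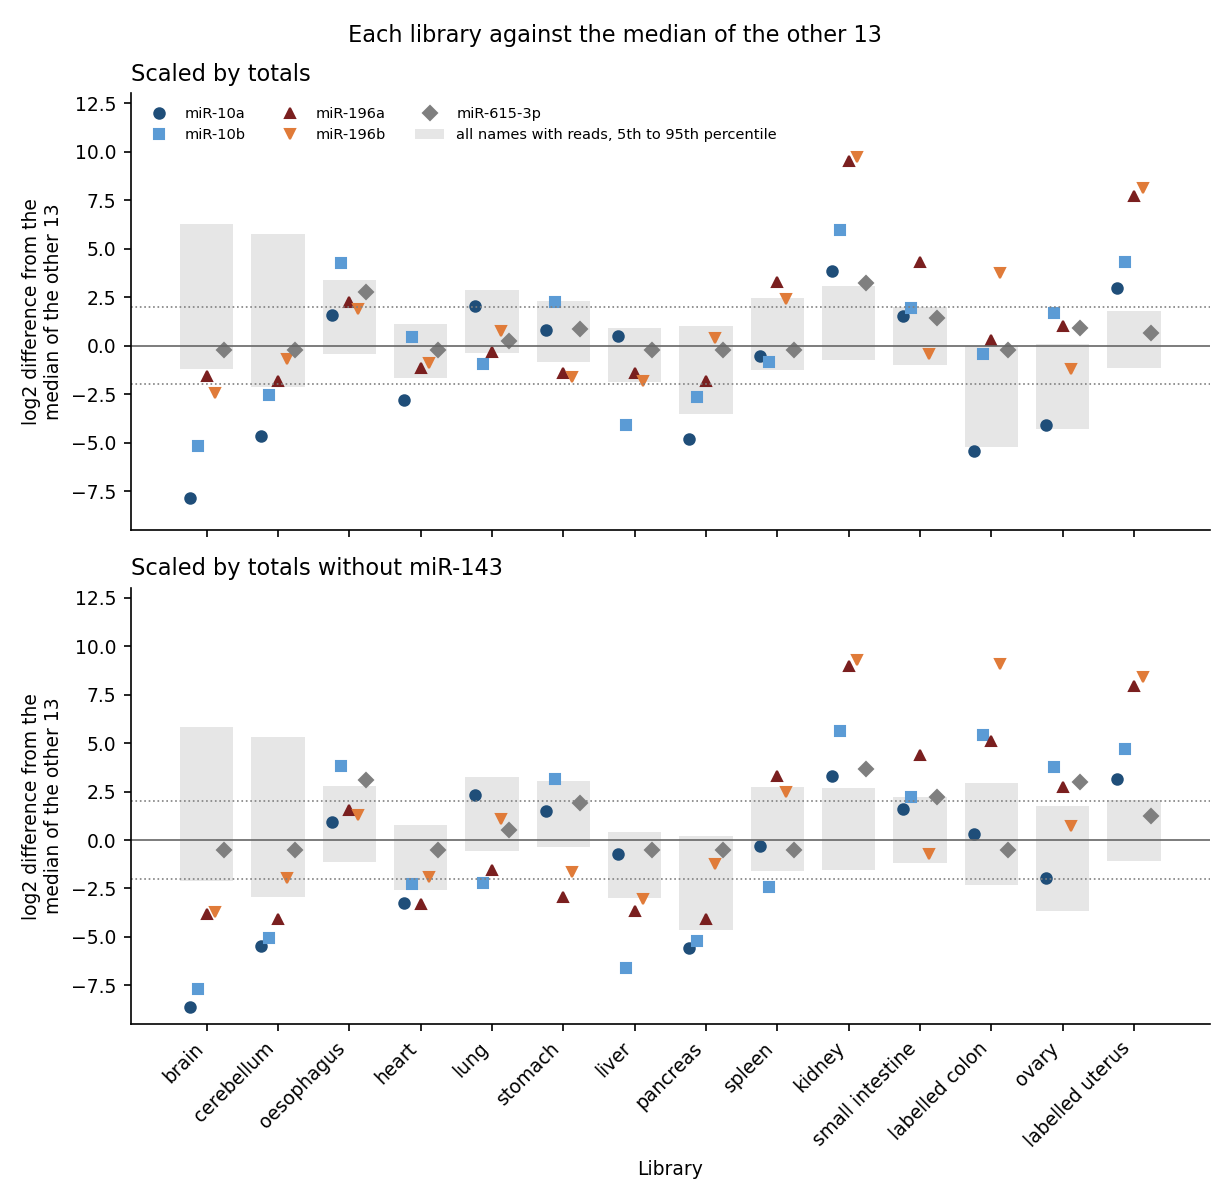
Difference on the log2 scale (vertical axis) between each library and the median of the other 13, for the 5 names (symbols) and the 5th to 95th percentile of all 805 names (grey bars), with library totals (upper panel) and totals without miR-143 (lower panel). Dotted lines mark 4-fold. In kidney and in the library labelled uterus the miR-196 symbols lie between 7.73 and 9.71 in the upper panel, and in the library labelled colon miR-196b lies at 9.05 in the lower panel.

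The organs were placed in 5 bands by adult position: head (brain and cerebellum), thorax (oesophagus, heart and lung), upper abdomen (stomach, liver, pancreas and spleen), middle abdomen (kidney and small intestine) and lower abdomen with pelvis (colon, ovary and uterus). Organs of a band are different tissues and not replicates, and adult position is not the embryonic origin of their cells. miR-196a ranged up to 0.188 RPM in the head band, 12.4 in the thorax, 26.8 in the upper abdomen, 2062 in the middle abdomen and 605 in the lowest band. The head value is 1 read in brain, and cerebellum, with no read, allows up to 2.64 RPM. With library totals, miR-10a spanned 8.84 to 88.1 RPM in the head band and 332 to 6547 RPM in the thorax. Pancreas (80.4 RPM) and the library labelled colon (52.6 RPM), both farther back, lay within the range of the head band on this scale. With miR-143 left out, pancreas (83.7 RPM) still lay within the head band (9.44 to 92.3 RPM), but the library labelled colon, at 4056 RPM, did not. Within bands the spread was wide, as for miR-196b in the middle abdomen, at 4706 RPM in kidney and 4.60 in small intestine.

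As a description over the 14 libraries, which differ in depth and in their share of miR-143, Spearman's rho of level against band was 0.61 for miR-196a, 0.51 for miR-10b, 0.43 for miR-196b, 0.36 for miR-615-3p and 0.23 for miR-10a. Over the 457 names that reached 10 RPM anywhere on totals without miR-143, the median rho was −0.47 with library totals, and 1.09% reached 0.5. On totals without miR-143 the values were 0.74 for miR-196a, 0.65 for miR-10b, 0.63 for miR-196b, 0.48 for miR-10a and 0.37 for miR-615-3p, against a median of −0.25 and 2.63% at 0.5 or more. With library totals and without the libraries labelled colon and uterus, rho was 0.19 for miR-196b and 0.57 for miR-196a.

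Kidney against brain was the widest contrast computed. miR-10a was 2607-fold (1961–3549) higher in kidney, at 23048 RPM in kidney and 8.84 RPM in brain. miR-10b was 1975-fold (1348–3024) higher. miR-196b and miR-196a had 2 reads and 1 read in brain, and the ratios of kidney to brain were 12511 (3463–103314) and 10962 (1967–433011). These 4 names passed 4-fold with 100 RPM or more in kidney, against 3.85% of all names, and again on totals without miR-143, against 5.22%.

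The library labelled uterus was higher than ovary for the same 4 names, against 7.83% of all names. miR-196b was 712-fold (305–2192) higher, miR-196a 125-fold (69.6–250), miR-10a 92.9-fold (83.1–104) and miR-10b 6.34-fold (5.97–6.74). With miR-143 left out these folds became 213, 37.3, 27.8 and 1.89, and miR-10b no longer passed 4-fold (3 names called, against 6.21% of all names). With median-of-ratios factors miR-10b turned to −0.41 on the log2 scale. Ovary held 1115 reads of miR-10b, 307 of miR-10a and 16 of the miR-196 pair.

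The library labelled colon was set against small intestine as a pair of intestinal segments by label. With library totals none of the 5 was called higher (0% of all names), and miR-10a was called lower (10.9% of all names were), at 52.6 RPM in the library labelled colon and 4607 RPM in small intestine. miR-196b was 16.3-fold (11.9–22.8) higher in the library labelled colon, at 75.1 against 4.60 RPM, under the minimum level of the rule. On totals without miR-143, miR-196b was 583-fold (427–816) higher and miR-10b 9.34-fold (8.73–9.99) higher, and these 2 names were called, against 4.35% of all names. On that scale miR-10a stood at 4056 RPM in the library labelled colon and 9928 RPM in small intestine, a ratio of 0.409 (0.367–0.454). The ratio of miR-196b to the other names within the library labelled colon does not rest on the total, but the low level of intestinal markers there (25.2 RPM, and 1941 RPM without miR-143) was measured in the same library, and its part in these differences was not tested.

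Heart against lung separated the miR-10 names. miR-10a was lower in heart (332 RPM) than in lung (6547 RPM), a ratio of 0.0508 (0.0487–0.0530), and was the only one of the 5 called, against 5.71% of all names lower in heart. miR-10b was 1.95-fold (1.78–2.14) higher in heart, at 209 RPM in heart and 107 RPM in lung. On totals without miR-143 the ratio for miR-10b was 0.965 (0.878–1.06), and miR-10a, at 0.0251, was again the one name called, against 13.3% of all names.

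The names whose levels followed each of the 5 most closely were taken by Pearson's r of log2(RPM + 1) over the 14 libraries, with totals without miR-143, among 447 names. For miR-10a these were miR-21 (0.86), miR-28 (0.84) and miR-455 (0.83). For miR-10b they were miR-214 (0.85), miR-145* (0.79) and miR-199b (0.77), all 3 with their highest level in the library labelled colon on this scale. For miR-196a they were miR-17* (0.69), miR-191 (0.66) and miR-455 (0.63), and for miR-196b miR-455 (0.61), miR-143 (0.57, divided by a total that leaves it out) and miR-200b* (0.57). For miR-615-3p, which has 137 reads in all, they were miR-429 (0.64), miR-200a (0.60) and miR-200b* (0.57). Among the 5 names themselves r was highest between miR-196a and miR-196b (0.89) and lowest between miR-196b and miR-615-3p (0.31).

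miR-99a, miR-99b and miR-100 are relatives of miR-10 that lie outside the Hox clusters and share the run ACCC at bases 2 to 5 with it. Only the 5′ part around the seed was searched for shared runs, so longer likeness further along is not covered. None of the 3 was called higher or lower in kidney or brain, and miR-99b was called higher in cerebellum. With library totals all 3 were called lower in the library labelled colon, and miR-99a in the library labelled uterus. With miR-143 left out, none of them was called in these 2 libraries. miR-99b stood at 1508 RPM in kidney, 741 in brain and 5750 in cerebellum, and miR-100 at 188, 436 and 687 RPM. miR-10a, by comparison, stood at 23048 RPM in kidney and at 8.84 and 88.1 RPM in these brain libraries. miR-196a shares the 7 bases AGGUAGU with let-7a, at bases 2 to 8 of miR-196a and 3 to 9 of let-7a, shown in capitals.
miR-196a: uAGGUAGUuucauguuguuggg
let-7a: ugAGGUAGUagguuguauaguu

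The let-7 family, known for its high level in adult tissue, had a lower level in kidney than in brain for each of its 9 listed names. All 9 were called higher in brain with library totals (2 without miR-143) and none in kidney. let-7a stood at 18247 RPM in kidney, where miR-196a stood at 2062, and at 95306 RPM in brain, where miR-196a had 1 read.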

How the data were processed

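The authors deposited 1 table of raw read counts per mature miRNA name, with no scaling, and all 14 of its columns were matched to a tissue by name. Per the labels' protocols, total RNA was extracted with Trizol, pooled over animals and made into libraries by standard Illumina procedure. No source used here gives the trimming, the aligner, the miRNA release, the genome build or the counting of reads with mismatches.

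Counts were divided by library totals (main scale) or by totals without miR-143, and multiplied by 1000000. Intervals are exact at 95% (Poisson for levels, Clopper-Pearson for shares, conditional binomial for folds), with SciPy 1.17.1 and pandas 2.3.3. Totals of 622132 to 9341000 reads set the precision, a count of 0 allows 3 reads, and reads without molecular identifiers are not independent molecules. A call needed 4-fold and 100 RPM, with 1 RPM added. The call rule was run on simulated libraries that shared a common profile, with names raised in kidney only. The fold interval was run on simulated pairs of counts. Neither run covers a library filled by miR-143 like the library labelled colon. The 5 names and the lists, pairs, bands and rules were chosen with earlier results of these data known. Names given are those of the lists and, for each of the 5, the 3 nearest by r. Alternatives were median-of-ratios factors, totals without the 5 most abundant names, a pseudocount of 10 RPM, minimum levels of 50 and 200 RPM, a 2-fold limit, summed arms and leaving out the libraries labelled colon and uterus. Star arms alone, and small intestine, lung, stomach and oesophagus without miR-143, were added after the data were seen. Sequences and positions are from RefSeq on GRCm38.p6.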

Additional observations from a re-analysis of the deposited data

How the results depend on the processing

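The 4 calls in kidney, the 4 in the library labelled uterus and the 2 each in brain and cerebellum kept their number under every alternative run for them. The count of calls in the library labelled colon was 0 with library totals, 3 with totals without miR-143 or without the 5 most abundant names, 2 with median-of-ratios factors and 1 with a minimum of 50 RPM. All 5 names were highest in kidney with library totals, with totals without miR-143 and without the libraries labelled colon and uterus, but only 1, miR-196a, was under either median-of-ratios factors or totals lacking the 5 most abundant names. With median-of-ratios factors miR-10a and miR-196b were then highest in the library labelled uterus, and miR-10b and miR-615-3p in ovary. Leaving out the top names gave the first place to the library labelled colon for miR-10b and miR-196b. Libraries with more miR-10b than miR-10a numbered 2, and 3 by star arms alone. Libraries with more miR-196a than miR-196b numbered 2, and 1 among libraries with 100 or more reads of the pair. miR-10a in the library labelled colon, −5.42 with library totals, turned to 0.29 without miR-143 and 0.28 without the 5 most abundant names, and miR-10b in the library labelled uterus against ovary, 2.66, turned to −0.41 with median-of-ratios factors. In small intestine 0 names were called higher with library totals and 2 without miR-143. Which total stands nearest to the tissue was not tested. Depth limits miR-615-3p and the miR-196 pair in most libraries. No paired analysis was possible because each tissue has 1 library.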

Other observations

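The share of star reads in a hairpin's reads differed between the miR-196 genes. In kidney the star arms made up 0.621% (0.515–0.743%) of the miR-196a reads and 0.0161% (0.0065–0.0332%) of the miR-196b reads, and in the library labelled uterus 1.86% (1.52–2.26%) and 0.0146% (0.0018–0.0529%). For miR-10a the star share was 0.201% (0.183–0.221%) in kidney, 0.116% (0.0966–0.138%) in the library labelled uterus and 0.240% (0.184–0.309%) in oesophagus. For miR-10b it was 0.261% (0.228–0.296%) in kidney, 0.111% (0.0746–0.158%) in the library labelled uterus and 0.133% (0.0826–0.204%) in oesophagus. Kidney and the library labelled uterus thus differed beyond counting error for the star shares of miR-10a, miR-10b and miR-196a, and not for miR-196b, which had 7 and 2 star reads.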
